A study of Mus musculus with 4 samples.

Results

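This account describes initiation zones that scored high in one of 2 lists from mouse embryonic stem cells but had no zone, or low-scoring zones alone, at the same place in the other list. Such zones are called unmatched strong zones here. They were selected on the deposited scores of both lists: a strong zone has a score at or above the 80th percentile of its own list over chromosomes 1 to 19, and it is unmatched when the zones of the other list that share at least 1 bin of 1 kb with it are none, or all score below the median of that other list. The rule found 1184 unmatched strong zones among the 52116 zones on these chromosomes, out of 55863 listed in all. They comprised 768 of the 5575 strong zones of set 1 and 416 of the 4853 strong zones of set 2, and the 9244 other strong zones served as the comparison.

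The lists come from polymerase-usage sequencing of E14tg2a, a mouse embryonic stem cell line. All cells carried Tet-OsTIR1::Rosa26(bi), a doxycycline-controlled OsTIR1, and mAID-RNaseh2a::puroR(bi), a degron-tagged RNaseh2a, so the parent line shares both with the derived line, which also carried Pole1-M630F(bi). Both lines, with 2 replicates each, were kept for 24 h in doxycycline and auxinole and then for 12 h in doxycycline and IAA. The library names of replicate 1 carry the name set 1 and those of replicate 2 the name set 2, in parent and mutant alike. The sources used here do not say which libraries entered each list. Parent and mutant were therefore not compared, and with 1 list per set no difference between the sets could be tested.

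A replication initiation zone is a stretch of the genome within which replication forks start at varying positions and move apart, rather than a single fixed origin. DNA polymerase ε makes the leading strand, and the M630F form leaves more ribonucleotides in the DNA it makes. RNase H2, of which RNaseh2a is the catalytic subunit, normally removes those ribonucleotides, so its depletion keeps them in place. Alkali then cuts the DNA at each ribonucleotide, and the strand on which cuts gather is the one that was made as the leading strand. On either side of an initiation zone the leading strand lies on opposite strands, which is the feature such maps read.

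Unmatched strong zones were a minority of the strong zones in both directions and were more frequent in set 1. They made up 13.8% of the strong zones of set 1 (768 of 5575; 95% exact binomial interval 12.9% to 14.7%) and 8.57% of those of set 2 (416 of 4853; 7.80% to 9.40%). These intervals treat zones as independent and cover counting alone. The same criterion applied to zones of any score was met by 54.8% of set 1 and 51.6% of set 2. Zones with no counterpart at all numbered 317 in set 1, or 5.69% of its strong zones beside 43.7% of all its zones. In set 2 they numbered 105, or 2.16% of its strong zones beside 39.8% of all its zones. The other unmatched zones, 451 in set 1 and 311 in set 2, met weak zones only. Since the scores define these classes, the counts describe the lists and nothing was tested on them. The scores are the authors' own values, without a stated unit, so levels are compared within a list and across lists only as percentiles.

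The length involved was small. Unmatched zones of set 1 covered 41.3 Mb of the 388 Mb in its strong zones (10.6%), and those of set 2 covered 27.2 Mb of 390.1 Mb (6.98%). Both shares of length lay below the corresponding shares of zones, because the unmatched zones were the narrower ones.

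The unmatched zones just inside and just outside each limit show how fine the boundary was. In set 1 the limit for a strong zone was a score of 34.9. Several unmatched zones tied at the lowest score, 34.91, among them one on chromosome 1 from 105356000 to 105387000, while a zone on chromosome 3 from 77424000 to 77482000, also without a counterpart, had 34.83 and fell outside. In set 2 the limit was 44.8. A zone on chromosome 7 from 15462000 to 15545000 was inside with 44.82, tied with one on chromosome 12, and a zone on chromosome 2 from 70521000 to 70569000 was outside with 44.797. The limit for a weak counterpart was as narrow. On chromosome 13 from 99054000 to 99107000 the set 1 zone was unmatched with a highest set 2 score of 8.48, and on chromosome 2 from 140129000 to 140245000 it was matched with 8.53. For set 2 zones the corresponding set 1 scores were 7.15 on chromosome 8 from 74997000 to 75075000 (unmatched) and 7.18 on chromosome 5 from 30483000 to 30554000 (matched).

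Set 1 zones with no counterpart reached scores well inside the strong range. All positions are in GRCm39 as listed, where the last position names the last 1 kb bin. The highest lay on chromosome 18 from 44929000 to 44983000, was 55 kb wide and scored 98.1, which is percentile 97.2 of set 1. Set 2 left 39 kb free on its left and 8 kb on its right, where a strong set 2 zone began. The next, on chromosome 4 from 113393000 to 113398000, scored 87.9 although it was 6 kb wide, and the nearest set 2 zones were 72 kb and 142 kb away. This was the highest score per kb of any unmatched zone, 14.7, against a median of 0.907 for the unmatched zones of set 1. A zone of 67 kb on chromosome 13 from 66580000 to 66646000 scored 84.5, with 183 kb free of set 2 zones on one side and 33 kb on the other. On chromosome 3, the zone from 116316000 to 116383000 scored 82.3 and its flanks were free of set 2 zones for 24 kb and 48 kb. The fifth lay on chromosome 7 from 48342000 to 48424000, was 83 kb wide and scored 82.2, with the next set 1 zone 11 kb away. These examples differ widely in width and in the distance to the next set 2 zone.

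In set 1 the highest-scoring zones with weak counterparts met set 2 zones of 1 kb to 33 kb. Chromosome 2 held the highest, from 154117000 to 154195000, with a score of 114.6 (percentile 98.5). Set 2 listed 2 zones inside it, of 26 kb and 6 kb, with scores of 4.16 and 2.94, so the better of them stood at percentile 40.1 of its own list. The zone on chromosome 11 from 113145000 to 113212000 scored 104.2 and met 1 set 2 zone of 33 kb that ran past its right edge with a score of 7.47. On chromosome 3 from 3059000 to 3135000, near the start of the listed span, a zone of 77 kb with a score of 97.6 met a single bin of set 2 with a score of 0.658. The zone on chromosome 2 from 78630000 to 78703000 scored 95.8 against 4.36 for a 20 kb zone inside it. Chromosome 5 from 122763000 to 122860000 completed the group, with 90.9 in set 1 against 4.58 and 0.110 in set 2, for a 19 kb zone across its left edge and a single bin. In each of the 5 cases no strong set 2 zone lay within 250 kb, the nearest being 256 kb away at the chromosome 3 zone.

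Set 2 zones with no set 1 counterpart were rarer. The highest lay on chromosome 9 from 3833000 to 3930000, was 98 kb wide and scored 133.8 (percentile 98.0), with set 1 zones 38 kb and 20 kb away. A zone on chromosome 18 from 32399000 to 32463000 scored 103.4 over 65 kb. The next were on chromosome 14 from 7305000 to 7366000, with 97.4, and on chromosome 16 from 28602000 to 28662000, with 96.3 and a set 1 zone 4 kb away. The fifth, on chromosome 3 from 74874000 to 74938000, scored 88.9 and had a strong set 1 zone 15 kb away. All 5 were between 61 kb and 98 kb wide.

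Weak counterparts in set 1 could be as small as 1 or 2 bins under the strongest set 2 zones. On chromosome 6 from 123759000 to 123834000 the set 2 zone scored 133.1, and set 1 listed 1 zone of 2 kb with a score of 0.236 inside it. The zone on chromosome 18 from 8438000 to 8525000 scored 132.9 over 88 kb, and set 1 listed 2 zones of 8 kb each with scores of 4.69 and 2.07. Chromosome 19 from 45481000 to 45559000 scored 123.3 against 4.32 in set 1. The zone on chromosome 7 from 57451000 to 57527000 scored 121.8 against 0.314 for a single bin and 0.943 for a zone of 8 kb, and that on chromosome 3 from 37087000 to 37159000 scored 120.2 against 6.63 and 2.57. The widest unmatched zones were of this weak kind in both sets, at 135 kb on chromosome 9 from 92858000 to 92992000 in set 1 and 169 kb on chromosome 10 from 70030000 to 70198000 in set 2.

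**Figure D1:**
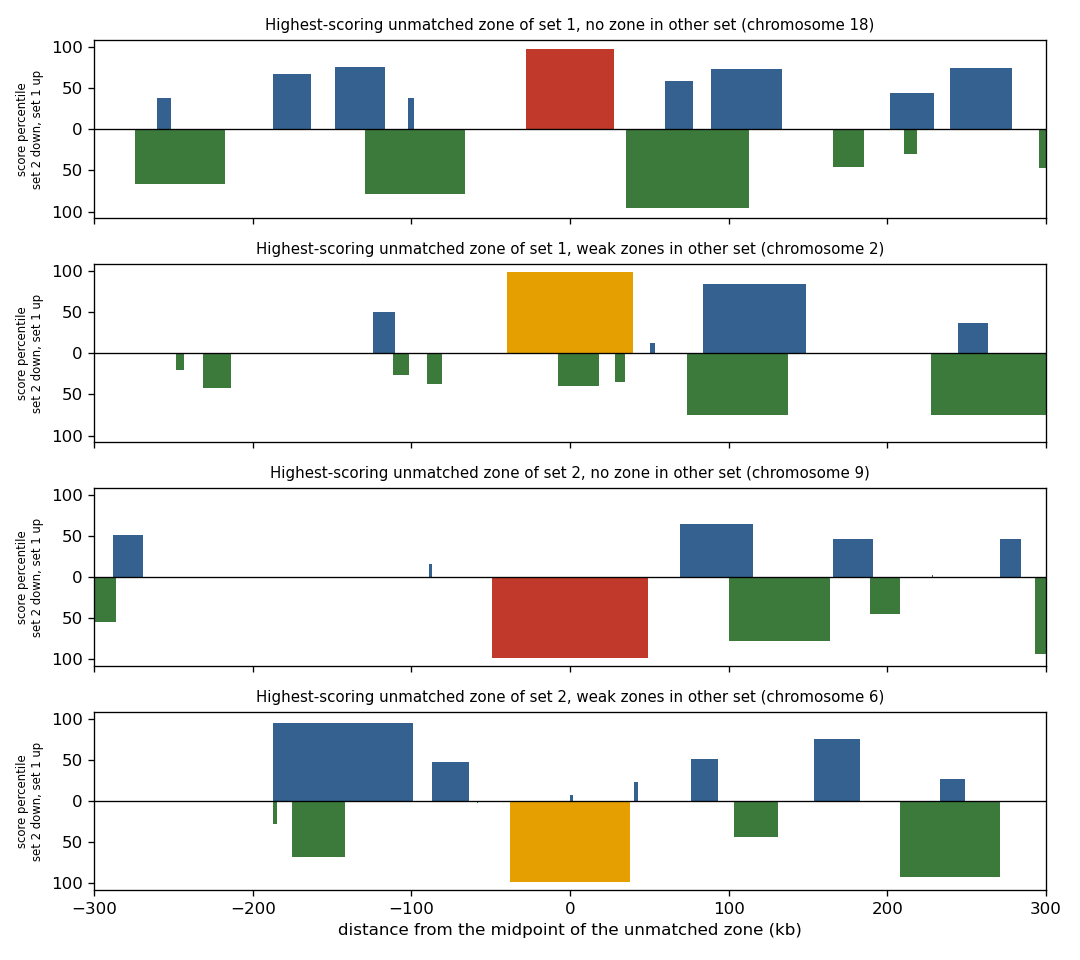
Zones of set 1 (upward bars) and set 2 (downward bars) within 300 kb of the midpoint of the highest-scoring unmatched zone of each kind; bar height is the percentile of the score in its own list and bar width the zone width, with the unmatched zone in red or orange. The red zones on chromosomes 18 and 9 face an empty stretch, while the orange zones on chromosomes 2 and 6 overlap zones of the other list at percentile 40.1 or lower.

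Among strong zones, the unmatched ones scored low and were narrow. The median score was 44.5 in unmatched zones of set 1 (interquartile range 38.7 to 54.0), against 63.6 in its other strong zones (47.0 to 86.2). In set 2 the medians were 58.8 (49.8 to 72.5) and 77.7 (59.3 to 105.4). Median width was 52.5 kb against 67 kb in set 1 and 62 kb against 76 kb in set 2. The difference in median width was -14.5 kb in set 1, with an SD of 3.23 kb between the values of the 19 chromosomes, and -14 kb in set 2, with an SD of 4.11 kb. Zones with no counterpart were narrower than those with weak counterparts, at 49 kb against 56 kb in set 1 and 59 kb against 64 kb in set 2. The rule used the scores, and a wider zone can meet more of the other list, so both contrasts are given as descriptions with no test.

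**Figure D2:**
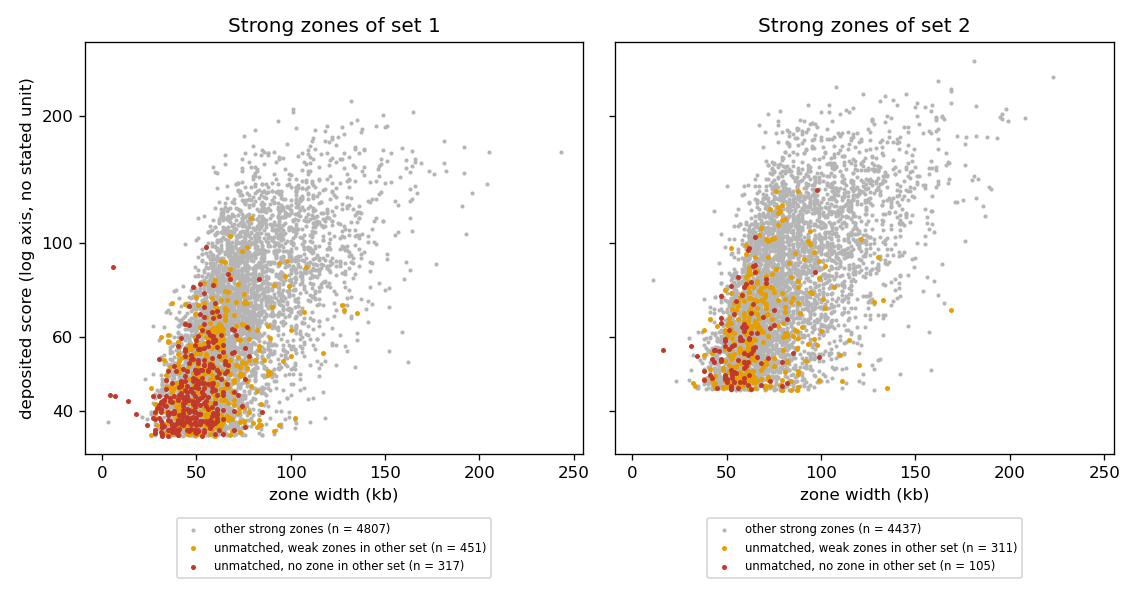
Deposited score (log axis) against width in kb for each strong zone, with set 1 on the left and set 2 on the right; red and orange points are unmatched zones without and with weak counterparts, grey points are other strong zones. Unmatched points gather at the low, narrow end, and the red point of set 1 at 6 kb and a score of 87.9 stands apart from the main cloud.

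The share of unmatched zones was lower at higher scores. Strong zones were split into 5 score classes of about equal size per set. In the lowest class of set 1, with scores up to 42.4, 29.6% were unmatched (330 of 1114), and the shares in the following classes were 20.1%, 13.4%, 5.01% and 0.807%. Of the 1115 zones of the top class, with scores of 88.7 or more, 9 were unmatched, and 1 of these had no counterpart. Set 2 gave 17.3% in its lowest class (168 of 971), then 12.1%, 8.74%, 3.71% and 1.03%, with 10 unmatched zones in the top class. The shares of set 1 were above those of set 2 in the lower 4 classes and not in the top one.

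By width the shares ran the same way. Unmatched zones made up 28.6% of the strong zones of 40 to 49 kb in set 1 and 18.8% in set 2, but 12.1% and 12.0% of those of 60 to 69 kb. From 80 to 99 kb the order of the sets turned, with 3.44% in set 1 (28 of 813) and 5.52% in set 2 (56 of 1014). Of the strong zones of 100 kb or more, 9 of 666 in set 1 and 15 of 983 in set 2 were unmatched, and each of these 24 met at least 1 weak zone.

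**Figure D3:**
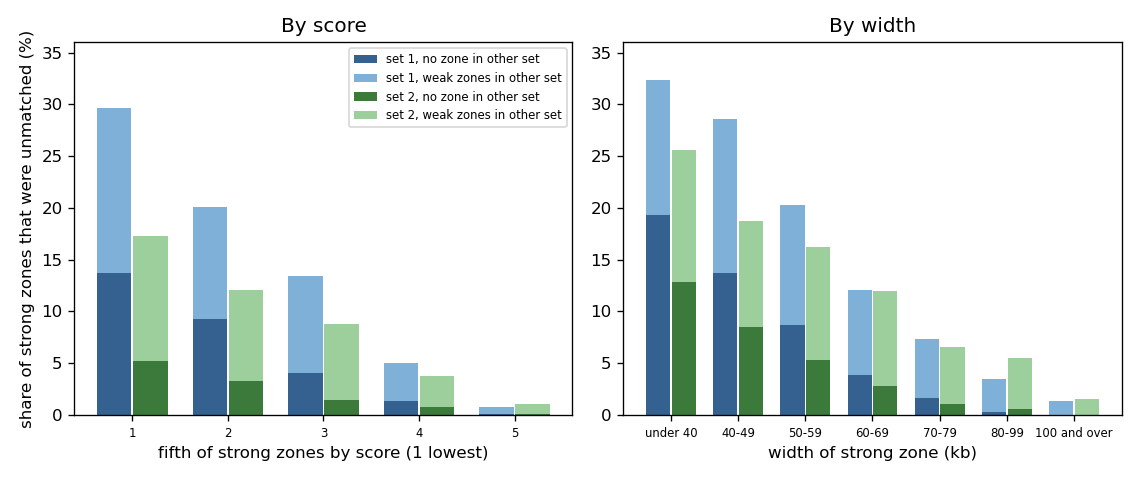
Share of strong zones (%) that were unmatched, by score class (left, 1 is lowest) and by width in kb (right), for set 1 (blue) and set 2 (green); dark bars are zones without a counterpart and light bars those with weak counterparts. Shares fall from 29.6% to 0.807% in set 1 and from 17.3% to 1.03% in set 2 across the score classes.

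At like width, unmatched zones still had lower scores. Among set 1 zones of 60 to 69 kb the median score was 49.9 in 141 unmatched zones (interquartile range 41.7 to 61.8) and 60.004 in 1027 others (47.6 to 77.4). From 70 to 79 kb the medians were 50.8 and 71.1, and from 40 to 49 kb they were 41.9 and 44.4. In set 2 the medians were 61.4 and 67.2 at 60 to 69 kb, 72.5 and 79.04 at 70 to 79 kb, and 51.4 and 53.0 at 40 to 49 kb. The interquartile ranges overlapped in every one of the 8 comparisons. Score per kb over all widths differed little, with medians of 0.907 and 0.954 in set 1 and of 0.964 and 1.04 in set 2. The difference was -0.0466 in set 1, with an SD of 0.0519 between the values of single chromosomes. In set 2 it was -0.0720, with an SD of 0.0491, and it turned to 0.0835 when strong meant the 90th percentile. These SDs describe how chromosomes differ and do not measure the uncertainty of the pooled differences.

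The weak counterparts were typically narrower than the strong zones they met. Unmatched zones of set 1 with weak counterparts met 608 set 2 zones with a median width of 9 kb (interquartile range 3 to 17). The set 2 zones met by other strong zones had 62 kb. In set 2 the 479 counterparts had a median width of 8 kb (3 to 14), against 52 kb. Single bins made up 15.0% of the counterparts in set 1 and 14.6% in set 2, against 2.58% and 3.41% for other strong zones. By the rule, each other strong zone meets at least 1 zone at or above the median. Over all zones, single bins numbered 2482 of 24245 in set 2 and 3191 of 27871 in set 1. Their share among all weak zones was not counted. These values therefore cannot show whether the counterparts held more or fewer single bins than weak zones in general. The counterparts covered a median of 19.05% of the unmatched zone in set 1 (8.81% to 31.6%) and 17.5% in set 2 (9.04% to 28.8%). The corresponding cover of other strong zones was 75.9% and 68.1%. The rule chose these counterparts by their low scores, so the widths and covers are descriptions. The width of weak zones elsewhere in the lists was not measured.

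Several weak zones often shared one strong zone. Of unmatched zones with weak counterparts, 30.4% in set 1 (137 of 451) and 43.1% in set 2 (134 of 311) met 2 or more zones of the other list. Among other strong zones 19.8% and 32.2% did so. Where the counterpart was a single zone, it lay wholly inside the unmatched zone in 72.6% of cases in set 1 (228 of 314) and 83.6% in set 2 (148 of 177), and it held the midpoint of the unmatched zone in 24.2% and 18.1%. Of the weak counterparts, 540 of 608 for set 1 zones and 446 of 479 for set 2 zones had their midpoint inside the unmatched zone. These midpoints were spread almost evenly along it, and the counterparts centred outside it were left out. Of 3 equal parts of the zone, the middle one held 35.0% of 540 in set 1 and 36.1% of 446 in set 2. Weak zones under other strong zones lay there less often, 23.0% of 605 and 24.6% of 947, although a zone above the median also occupies part of those strong zones by definition.

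Zones with no counterpart sat in free stretches of the other list that were longer than themselves. The stretch of set 2 that held such a set 1 zone had a median length of 122 kb (interquartile range 88 to 161), of which the zone filled 40.2%. For set 2 zones, the stretch of set 1 measured 118 kb (91 to 162) and 50.2% was filled, over the 104 zones with a set 1 neighbour on both sides. Over all neighbouring zones, the median gap was 57 kb for set 2 and 48 kb for set 1, but a strong zone without a counterpart can lie only in a gap at least as long as itself. On the nearer side the next zone of the other list was a median of 14 kb away for set 1 zones and 9.5 kb for set 2 zones, and on the farther side 53 kb and 47 kb. A zone of the other list lay within 10 kb on at least one side of 124 of 317 set 1 zones (39.1%) and of 56 of 104 set 2 zones (53.8%). It did so on both sides of 10 and 5 of them.

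The nearest zone of the other list was of any strength. Its score had a median percentile of 55.3 for set 1 zones without a counterpart (interquartile range 31.6 to 77.3) and 54.4 for those of set 2 (26.0 to 78.9). It was itself strong in 70 of 317 cases (22.1%) and 26 of 105 (24.8%), where about 20% of all zones are strong by definition.

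The rule removes any overlapping strong zone of the other list, and the distance to the nearest one is given as a description. Its median was 129.5 kb for unmatched zones of set 1 (interquartile range 54 to 252) and 102 kb for those of set 2 (44 to 204). Within 10 kb there was one for 37 of 768 zones in set 1 (4.82%) and 26 of 416 in set 2 (6.25%), within 50 kb for 177 (23.0%) and 117 (28.1%), and within 100 kb for 324 (42.2%) and 207 (49.8%). Nearly all had one within 500 kb, 93.0% in set 1 and 96.6% in set 2. Other strong zones may overlap one, and their median distance was 0 kb in both sets (upper quartiles 64 kb and 27 kb). Shares within each distance were not counted for them.

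Around zones without a counterpart, cover by the other list lay above its average a short way out. At 80 kb from the midpoint of the set 1 zones, averaged over both sides, 39.4% of bins lay in set 2 zones, against 32.8% of all bins of the span. Around the set 2 zones the value was 37.8% in set 1 zones, against 32.0%. At the same distance from other strong zones it was 23.2% and 22.8%, below the average. Around unmatched zones with weak counterparts it was 33.1% and 32.5%. At 200 kb the values for zones without a counterpart were 33.0% in both sets. Around the 105 set 2 zones the course between was uneven, with 29.2% at 110 kb and 36.8% at 170 kb. Distances run from midpoints, so 80 kb lies farther beyond the edge of a narrower zone. A stretch left empty by the rule is followed sooner by a zone, and a stretch filled by a zone is followed by a gap, so part of this contrast is built in. How large that part is was not tested.

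**Figure D4:**
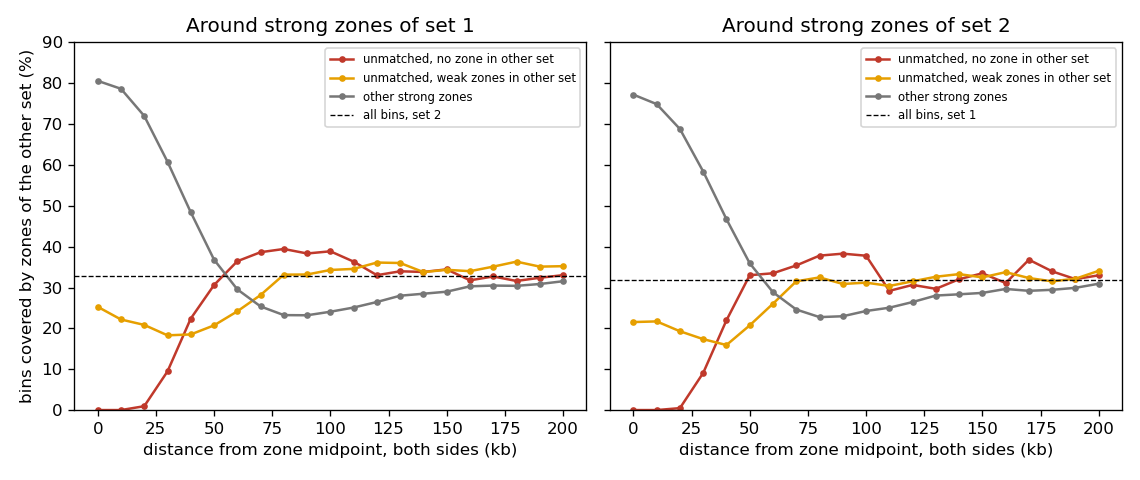
Share of 1 kb bins (%) inside zones of the other list by distance in kb from the midpoint of the strong zone, averaged over both sides, for set 1 (left) and set 2 (right); the dashed line is the share over all bins. Zones without a counterpart (red) pass the dashed line by 60 kb and reach 39.4% and 37.8% at 80 kb, where other strong zones (grey) are at 23.2% and 22.8%.

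Within their own list, unmatched zones stood farther from their neighbours. The median gap to the nearest zone of the same set was 48 kb for unmatched zones of set 1 and 38 kb for other strong zones, a difference of 10 kb with an SD of 4.89 kb between chromosomes. In set 2 the medians were 58 kb and 46 kb, a difference of 12 kb with an SD of 8.63 kb. Of the 4 width classes compared, from 40 to 79 kb, the difference was largest from 60 to 69 kb, 54 kb against 33 kb in set 1 and 62.5 kb against 43 kb in set 2. It was absent in set 1 from 70 to 79 kb, where the medians were 32.5 kb in 58 unmatched zones and 34 kb in 735 others. The mean score per bin in the wider surroundings, 50 to 500 kb away, was close to the average of the list. For this value each score was spread evenly over the bins of its zone, and bins outside zones added nothing. It therefore mixes zone cover with score per kb. As a ratio to the mean, medians in the same set were 0.961 for unmatched and 0.928 for other strong zones of set 1, and 0.970 and 0.923 in set 2. In the other set they were 0.968 and 0.921 around set 1 zones and 1.01 and 0.928 around set 2 zones. The interquartile ranges, such as 0.764 to 1.18 around unmatched set 1 zones in set 2, were far wider than these differences.

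Unmatched zones occurred on all 19 chromosomes in both sets. Their share of the strong zones averaged 13.6% ± 2.13 (SD, 19 chromosomes) in set 1 and 8.64% ± 1.99 in set 2. In set 1 it was highest on chromosome 16 (16.9%, 37 of 219), chromosome 1 (16.8%, 78 of 465), chromosome 14 (16.1%, 40 of 249) and chromosome 7 (16.0%, 48 of 300). It was lowest on chromosomes 12 and 17 (10.3% each). In set 2 the highest shares were those of chromosome 14 (12.8%, 29 of 226) and chromosome 7 (12.1%, 32 of 265), and the lowest was that of chromosome 9 (4.89%, 13 of 266). Chromosome 16 followed in set 2 (10.4%, 19 of 183), so chromosomes 7, 14 and 16 were among the highest 4 in both lists. These ranks rest on 17 to 78 unmatched zones per chromosome in set 1 and 8 to 38 in set 2. How much of the spread between chromosomes comes from counting alone was not tested, so the ranks describe these lists only. Chromosomes 11 and 19 had 10.4% and 11.7% in set 1 and 8.30% and 7.21% in set 2, chromosome 4 had 15.3% and 7.80%, and chromosomes 13 and 8 had 13.8% and 11.5% in set 1 but 7.69% and 9.88% in set 2. Across the 19 chromosomes the shares of the 2 lists had a Pearson r of 0.382 and a Spearman rho of 0.401. For unmatched zones per Mb the values were 0.139 and 0.130. Both are descriptions only, since the values come from the same pair of lists. On every chromosome the share of set 1 exceeded that of set 2.

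**Figure D5:**
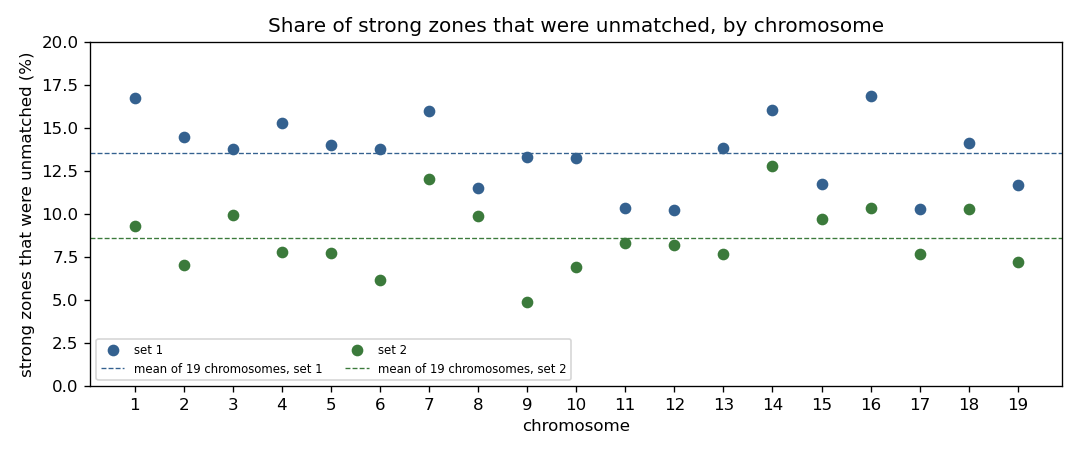
Share of strong zones (%) that were unmatched on each of chromosomes 1 to 19, for set 1 (blue) and set 2 (green); dashed lines are the means over chromosomes, 13.6% and 8.64%. Set 1 lies above set 2 on each chromosome, and chromosomes 7, 14 and 16 are high in both.

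Shares near the chromosome ends lay within 2 percentage points of those between. In the first 10 Mb of the listed span, 12.9% of the strong zones of set 1 (59 of 456) and 9.98% of those of set 2 (43 of 431) were unmatched. In the last 10 Mb the shares were 15.0% (64 of 426) and 8.49% (31 of 365), and between them 13.7% and 8.43%. The first 10 Mb were below the stretch between in set 1 and above it in set 2.

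How often unmatched zones stood next to each other depended on which zones counted as neighbours. They were 2.76% of all zones in set 1 and 1.72% in set 2. Of the 768 in set 1, 709 had no unmatched zone next to them in the list, 56 formed 28 pairs of direct neighbours, and 3 formed a run on chromosome 3 from 78329000 to 78609000 with scores of 35.6 to 40.2. When weaker zones between them were passed over, this run had 4 strong zones and reached 78687000. In set 2, 396 of 416 stood singly and 20 formed 10 pairs, of which 3 were on chromosome 4 and 2 each on chromosomes 8 and 14. Among strong zones alone, 524 of 768 in set 1 and 340 of 416 in set 2 stood singly, and the others formed runs of 2 to 4 in set 1 and of 2 or 3 in set 2. Of 2411 windows of 1 Mb, 1493 (61.9%) held no unmatched zone of either set. The most in one window was 4, reached in 4 windows. These started at 32000000 (chromosome 2), 78000000 (chromosome 3), 49000000 (chromosome 12) and 79000000 (chromosome 15). In the chromosome 2 window, 2 of 3 strong zones were unmatched in each set. The chromosome 3 window had 4 of 6 in set 1 and 0 of 1 in set 2. The chromosome 12 window had 3 of 4 and 1 of 2, and the chromosome 15 window 3 of 3 and 1 of 1. Such small numbers of strong zones cannot show that a window favours 1 set.

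Unmatched zones of the 2 sets cannot overlap by the rule, but they could lie side by side. A set 2 unmatched zone lay within 100 kb of 58 of the 768 in set 1 (7.55%), and a set 1 unmatched zone within 100 kb of 56 of the 416 in set 2 (13.5%). The closest pair was 4 kb apart. The median distance was 1830 kb from set 1 zones and 947.5 kb from set 2 zones. The same values were not counted for other strong zones. They therefore cannot show whether unmatched zones of the 2 sets lie closer together than strong zones in general. Windows of 1 Mb with unmatched zones of both sets numbered 123, which is 18.9% of the 652 windows with one of set 1 and 31.6% of the 389 with one of set 2. Of all windows, 27.0% held one of set 1 and 16.1% one of set 2.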

How the data were processed

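The submitters' processing notes name Bowtie2 and the build GRCm39. Its version, the zone caller and the caller's settings are not stated in the labels. The score that the authors deposited per zone has no header or stated unit. The lists hold no read counts, and the depth behind a zone is unknown. Zones were read with both listed positions as 1 kb bins, inclusive. Percentiles, overlaps and gaps (free bins between zones) were computed in Python 3.11.15 with NumPy 2.4.6, and exact binomial intervals with SciPy 1.17.1. Member finding and gaps were tested on 20 simulated lists, with 0 of 2402 strong zones misclassified. Each simulated zone had either no counterpart or a single bin at its edge. Wider or multiple counterparts were not simulated. Members and measures were chosen with earlier results of these data known. Named regions are the 5 highest scores of each kind per set, the widest, those at the limits, the longest runs and the fullest windows. With 1 list per set, no test between groups was made. Nothing in the labels says that replicates were separate cultures. Genes and sequences were not analysed here, because the tables at hand are on GRCm38.p6.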

Additional observations from a re-analysis of the deposited data

How the results depend on the processing

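The share of strong zones that were unmatched depended on the limits. In set 1, where it was 13.8%, and set 2, where it was 8.57%, it became 4.59% and 3.50% with the 90th percentile, and 22.4% and 15.4% with the 70th. With weak meaning below the 25th percentile it was 7.89% and 3.44%, and with zones without any counterpart alone 5.69% and 2.16%. An overlap of at least 5 bins gave 15.2% and 9.52%, one of at least 10% of the strong zone 15.5% and 10.1%, and counting zones within 10 kb as meeting 11.8% and 6.92%. Score per kb in place of score gave 28.7% and 21.5%. The construction of the rule fixes the direction for the weak limit, the overlap and the 10 kb settings; for the other settings the cause was not tested. Set 1 was above set 2 under each. With the last position as an exclusive end, which also drops single-bin zones, the shares were 13.9% and 9.39%. Percentiles over all chromosomes gave 13.8% and 8.67%, and adding chromosome X gave 14.3% and 9.07%. Leaving out the outer 10 Mb gave 13.7% and 8.43%. All lay within the binomial intervals given above, which cover counting alone and do not measure the effect of a setting. Of 48 descriptive values under 4 settings, 40 moved by less than their SD between chromosomes, 7 by more, and 1 turned. This SD does not measure the effect of a setting. In set 1 the share of unmatched zones with no counterpart moved by more under all 4, from 41.3% to between 25.8% and 72.0%. In set 2 it did so with the lower weak limit (25.2% to 62.9%) and the 5-bin overlap (45.0%). With the lower weak limit the rule fixes this rise, since zones without a counterpart stay the same while unmatched zones become fewer. The number of zones without a counterpart can only rise with the 5-bin overlap and only fall with the 10 kb setting. The remaining one of the 7 was the same-set gap difference of set 1, from 10 kb to 15 kb with the 90th percentile. The difference in score per kb of set 2 turned to 0.0835 with the 90th percentile (the cause was not tested).

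Leaving out either list leaves no comparison, so it was not run. No paired analysis was possible because each set is a single list and the labels do not tie a list to particular libraries.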

Other observations

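A few strong zones were very narrow, and most of these were unmatched; they were singled out after their values were seen. Of strong zones of up to 20 kb, set 1 had 5 among 768 unmatched zones and 1 among 4807 others, and set 2 had 1 among 416 and 1 among 4437. All 6 unmatched ones had no counterpart. Beside the zone of 6 kb on chromosome 4 they lay on chromosome 7 from 38693000 to 38696000 (score 43.6, nearest set 2 zone 113 kb away) and from 61023000 to 61036000 (42.3), on chromosome 12 from 22825000 to 22831000 (43.3), on chromosome 15 from 32848000 to 32865000 (39.4), and in set 2 on chromosome 12 from 20022000 to 20037000 (55.8). Their scores per kb ran from 2.19 to 14.7, against medians of 0.907 and 0.964 over all unmatched zones. Mappability and assembly gaps were not analysed here.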
